A study of Mus musculus with 9 samples.

Results

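The transcripts described here are those of 7 families of plasma membrane and lysosomal amino acid carriers (Slc1a, Slc3a, Slc6a, Slc7a, Slc36a, Slc38a and Slc43a), measured in mouse liver with and without the microRNA miR-122. They were taken by gene symbol alone. The symbol rule matched 62 of the 30519 transcripts listed, 1 per gene. One of the 62, Slc7a6os, is not a carrier and was set apart, which left 61. It averaged 12.1 ± 1.4 in KO livers and 13.5 ± 0.9 in WT livers and was not called (limma, adjusted p = 0.210).

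The animals were 4 miR-122 knockout mice (KO, 1 female and 3 males) and 5 floxed littermates as controls (WT, 3 females and 2 males), all 6 weeks old. The labels give neither the Cre driver nor the litters, and the liver powder used for RNA was the share not crosslinked for Argonaute CLIP. The comparison asks which transcripts differ once the microRNA is lost. PolyA RNA was sequenced, and the deposited values are normalised abundances. The reads behind 1 unit grow with transcript length, so levels are per length and can be set side by side between genes. In units of M (mega), library sums ran between 0.711 and 0.869 in KO libraries and between 0.873 and 1.167 in WT libraries. About 15.0 to 20.4 M normalised reads per library lay behind the transcripts with a mean observation. WT replicate 3 is labelled female but has a column named male. Its 4 Y-linked transcripts summed to 0.4887, against at least 51.66 in every labelled male, and the label was kept. The hepatocyte markers were abundant throughout: their sum, most of it Alb, ran from 48640 to 66520 in KO livers and from 43890 to 108900 in WT livers.

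Amino acid carriers work as exchangers, as sodium- or proton-coupled importers, or as facilitated carriers. Several Slc7 light chains reach the membrane only when bound to a heavy chain of the Slc3 family. In liver they feed glutamine, alanine and arginine to the urea cycle, to glucose synthesis and to glutathione synthesis, and some sit on lysosomes where they take part in amino acid sensing by mTORC1. miR-122 is the dominant microRNA of hepatocytes and pairs through its seed, bases 2 to 8, with 3′ UTR sites. Slc7a1, the cationic amino acid carrier CAT-1, is a published miR-122 target.

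Matches to the seed were searched on the sense strand of each annotated 3′ UTR of at least 50 bases (GENCODE M21 on GRCm38, the same assembly as mm10). The site types were the 8mer ACACTCCA, the 7mer-m8 ACACTCC without a following A, the 7mer-A1 CACTCCA without a preceding A, and the 6mer CACTCC with neither. Only 3 of the 55 carriers with such a UTR held an 8mer, and their 5 sites are shown with the surrounding 30 bases, in mRNA sense and with the site in capitals, because the 8mer is the longest of the 4 types and Slc7a1 is the published target.
Slc7a1 first site, chr5:148332102-148332109, minus strand, 331 bases into its UTR of 5030: gcccatgtgcACACTCCAgatggctagtga
Slc7a1 second site, chr5:148328374-148328381, minus strand, 4059 bases in: gaaacgtgctACACTCCAatgtggttagga
Slc38a9 first site, chr13:112734313-112734320, plus strand, 2649 bases into its UTR of 7085: tgccatcagcACACTCCAgaaatgtgcttg
Slc38a9 second site, chr13:112735084-112735091, plus strand, 3420 bases in: actttgacttACACTCCAgagagggagcta
Slc1a5, chr7:16797844-16797851, plus strand, 105 bases into its UTR of 535: ggctgtttacACACTCCAggaatctagggg

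Beside the 8mers, Slc7a1 had a 7mer-A1 933 bases into the UTR, and Slc1a5 had a 7mer-m8 at base 418 and a 7mer-A1 at base 458. A 7mer-m8 was the best match of 6 more carriers, and the sites of the 2 that were called are shown in the same way.
Slc6a4, chr11:77032272-77032278, plus strand, 595 bases into its UTR of 663: ctcaattccaACACTCCgggcccattacaa
Slc7a6, chr8:106197185-106197191, plus strand, 547 bases into its UTR of 2068: aagaggaacaACACTCCctccctccccgga

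Of the 55 UTRs, 22 (40.0%) held at least 1 match of any type, against 24.2% of 17830 UTRs of all listed transcripts. As the best match, an 8mer stood in 5.5% of the carriers' UTRs and in 2.82% of all, a 7mer-m8 in 10.9% and 4.89%, a 7mer-A1 in 7.3% and 5.42%, and a 6mer in 16.4% and 11.11%. The carriers' UTRs were also longer, with a median of 1265 bases against 791, and no allowance for length was made. A match is a description of the letters and not a site shown to be bound.

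**Figure D1:**
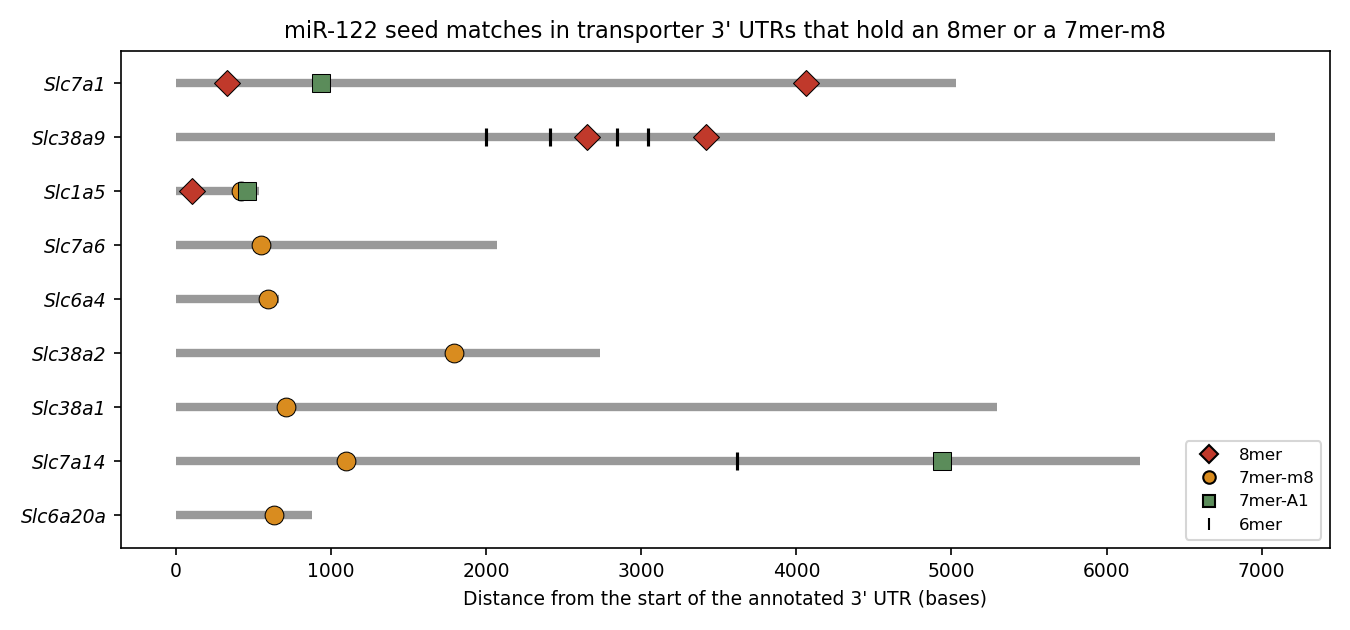
Seed matches along the annotated 3′ UTR of the 9 carriers whose best match is an 8mer or a 7mer-m8; the grey bar is the UTR and the horizontal axis is the distance in bases from its start. Slc7a1 and Slc38a9 hold 2 8mers each, and the 3 matches of Slc1a5 lie within a UTR of 535 bases.

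Most of the abundance of the listed carrier transcripts came from a pair of them, and other isoforms of the same genes are not in these sums. Slc38a3 (SNAT3, the sodium-coupled glutamine, asparagine and histidine carrier) and Slc38a4 (SNAT4, a carrier of small neutral amino acids) together made up 59.4% to 69.3% of the summed abundance of the 61 carriers in KO libraries and 62.8% to 69.5% in WT libraries. The sum itself lay between 690.8 and 1060.3 in KO and between 925.8 and 1120.2 in WT libraries, and the ranges overlapped. KO replicate 1, the only KO female, had the lowest sum. Averaged over all 9 libraries, 23 carriers reached 1 or more, and 13 of them lay above 10. Another 16 had a mean between 0.1 and 1, and 22 lay under 0.1, with no single value above 0.265 and 3 of them at 0 in every library.

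**Figure D2:**
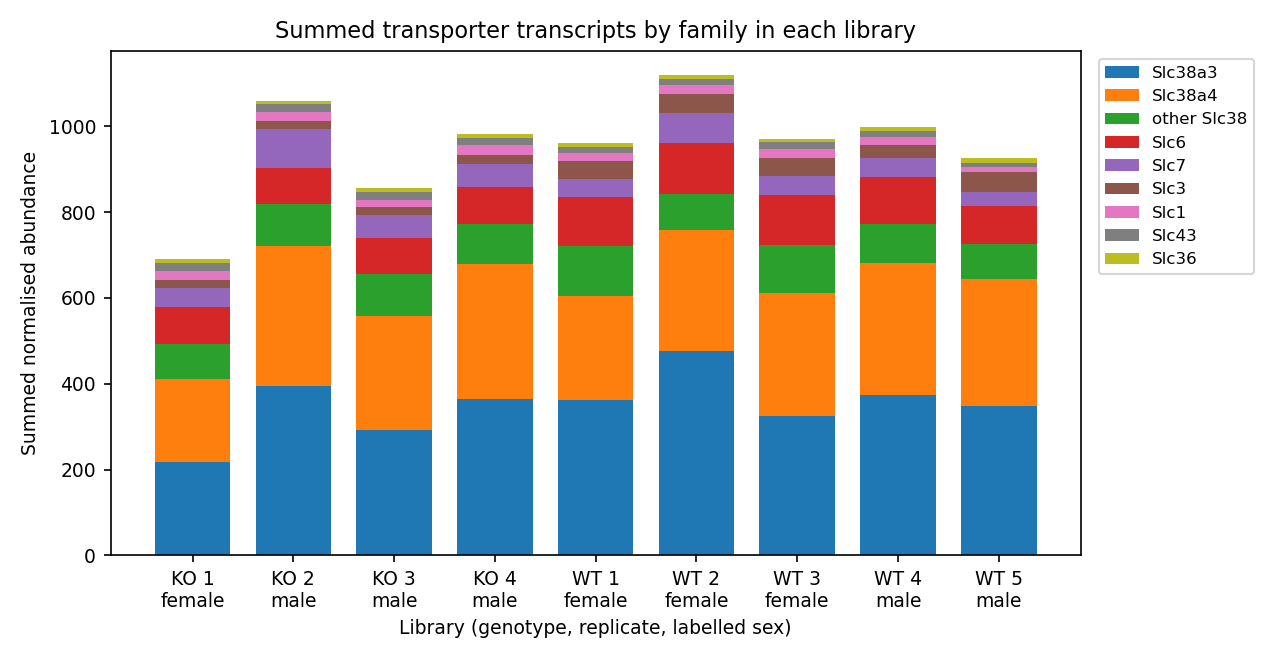
Stacked sums of normalised abundance (no unit, vertical axis) over the 61 carriers in each library, KO on the left and WT on the right, coloured by family with Slc38a3 and Slc38a4 shown apart. Slc38a3 and Slc38a4 fill 59.4% to 69.5% of every bar, and KO replicate 1 has the lowest bar at 690.8.

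Among the 23 carriers with a mean of at least 1, 5 were called higher and 4 lower in KO livers, and 14 did not pass (limma on log2(value + 1), Benjamini-Hochberg adjusted p below 0.05 over 10950 transcripts). Over all tested transcripts 21.4% were called higher and 14.5% lower, so 5 and 4 of 23 are shares near the background. The median log2 fold change was 0.12 for these carriers and 0.03 for all transcripts. Values of the 4 KO and the 5 WT libraries did not overlap for 9 carriers. KO was above WT for 6 of these, where 19.0% of all tested transcripts had that order, and below WT for 3, where 12.1% had it. Each replicate is 1 animal. Folds divide one group mean by the other, while log2 fold changes, on values with 1 added, understate the change of low transcripts.

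Those calls depend on how the libraries are put on a common scale. Scaling every library to the same total moved the median of all log2 fold changes by 0.34. On that scale 10 of the 23 carriers were called higher and 1 lower, where 45.4% of all transcripts were called higher and 2.72% lower. Slc43a2, Slc6a8, Slc7a7, Slc7a8, Slc1a4 and Slc3a1 were called in the same direction on both scales. Slc6a12, Slc6a13 and Slc38a6 were called lower as deposited and not called with equal totals, while Slc38a9, Slc3a2, Slc38a7, Slc38a10 and Slc43a3 were called higher with equal totals and not called as deposited.

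**Figure D3:**
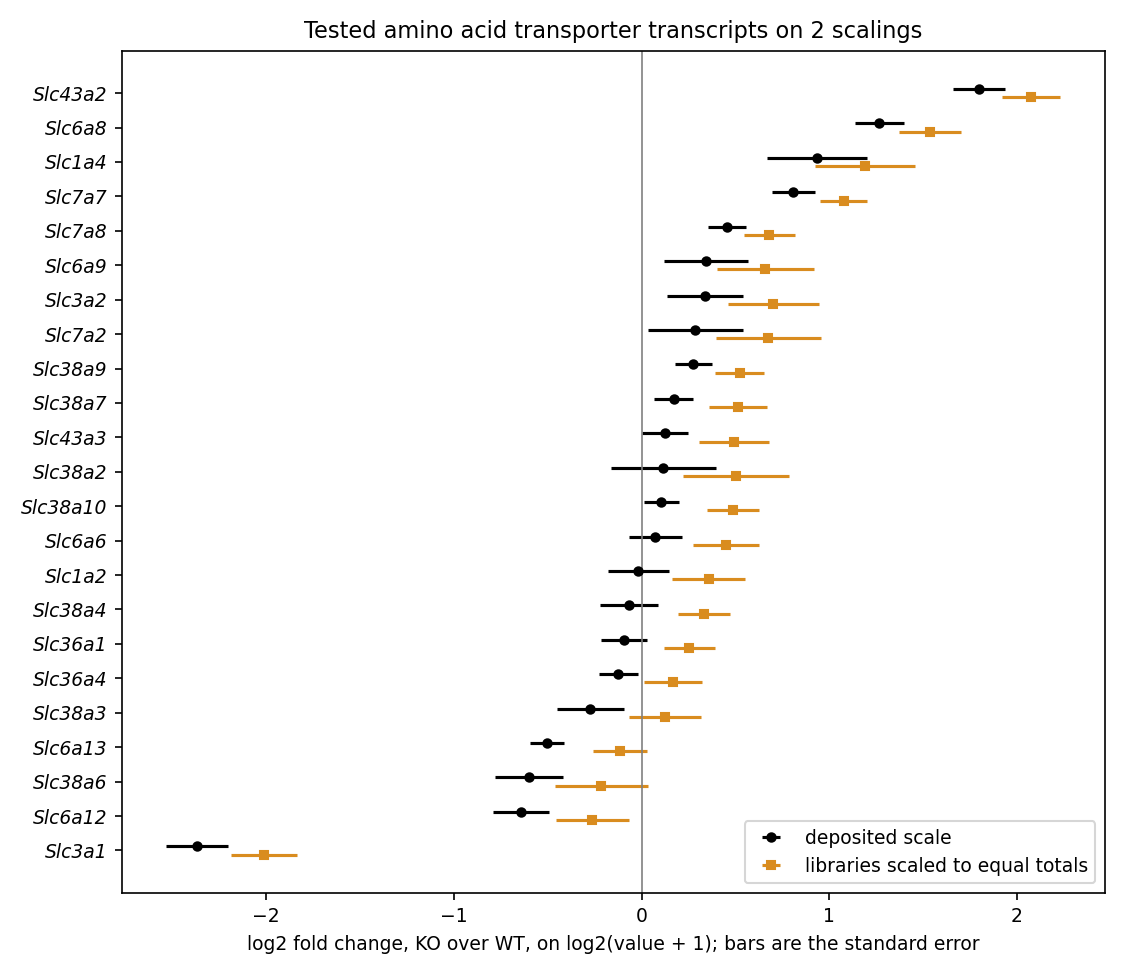
Log2 fold change of KO over WT on log2(value + 1) for the 23 tested carriers, with its standard error, as deposited (black circles) and with libraries scaled to equal totals (orange squares). All 23 estimates move to the right with equal totals; Slc3a1 is the lowest on both scales at -2.37 and -2.01, and Slc43a2 the highest at 1.80 and 2.08.

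The heavy chains moved unequally. Slc3a1 (rBAT), which in kidney and intestine carries the cystine and dibasic amino acid exchanger to the membrane, was the carrier with the smallest adjusted p. Listed from replicate 1 upwards, here and below, it lay at 6.16, 4.25, 4.21 and 5.30 in the KO livers, against 29.6, 32.5, 29.3, 21.1 and 37.98 in the WT livers. Every KO value was far below the lowest WT value. Its mean was 4.98 ± 0.93 in KO and 30.1 ± 6.1 in WT livers (SD, n = 4 and 5), which is 6.05-fold lower in KO. The log2 fold change was -2.37 ± 0.16 (SE, adjusted p = 8.79e-06), and -2.01 with equal totals (adjusted p = 1.41e-05). In males alone it was -2.40 (adjusted p = 0.00346).

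The Slc3a1 transcript (chromosome 17, 85028376 to 85064236, plus strand, GRCm38) shares 601 of its 2271 exonic bases with Prepl, a gene on the opposite strand, and whether the libraries keep strand is not stated in the labels. Prepl averaged 6.94 ± 1.46 in KO and 8.07 ± 0.89 in WT livers and was not called (adjusted p = 0.263). The Slc3a1 UTR of 157 bases held no seed match. Slc7a9, the light chain that rBAT carries, was near the floor in every liver, at 0.0354, 0, 0.0744 and 0.157 in KO and at 0, 0, 0.0395, 0 and 0 in WT.

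Slc3a2 (4F2hc, or CD98), the heavy chain of the light chains Slc7a5, Slc7a6, Slc7a7, Slc7a8, Slc7a10 and Slc7a11, was not called. It lay at 12.1, 16.0, 13.5 and 15.9 in KO livers, against 13.8, 13.4, 13.7, 9.96 and 6.56 in WT livers. The groups overlapped, and both WT males were below every other library. The log2 fold change was 0.34 ± 0.20 (adjusted p = 0.226) over all libraries, 0.70 with equal totals (adjusted p = 0.0344) and 0.82 in males alone (adjusted p = 0.0306).

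The light chains that pair with Slc3a2 held both called and uncalled members. Slc7a7 (y+LAT1), which exports cationic amino acids in exchange for neutral ones, lay at 2.51, 2.96, 3.03 and 3.20 in KO livers, against 1.48, 0.916, 1.06, 1.19 and 1.60 in WT livers. The groups did not overlap, and the KO mean was 2.34-fold higher (log2 fold change 0.81 ± 0.12, adjusted p = 0.000648). It shares 232 of 2132 exonic bases with Oxa1l on the opposite strand, which averaged 15.7 ± 1.0 in KO and 17.5 ± 2.2 in WT livers. Slc7a8 (LAT2), an exchanger of neutral amino acids, lay at 1.58, 1.48, 1.85 and 1.39 in KO livers, against 1.00, 0.712, 0.827, 1.04 and 0.803 in WT livers. It was 1.80-fold higher in KO with no overlap (log2 fold change 0.46 ± 0.10, adjusted p = 0.00720). In males alone the Slc7a8 estimate was 0.42, with an adjusted p of 0.138. Its WT mean of 0.8775 was below the cut of 1, which it passed through its KO values.

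Slc7a5 (LAT1), the large neutral amino acid exchanger of dividing cells, had overlapping groups. It lay at 0.873, 0.691, 0.664 and 0.665 in KO livers, against 0.490, 0.646, 0.457, 0.755 and 0.730 in WT livers. Slc7a11 (xCT), the cystine importer for glutathione synthesis, is represented by a retained intron transcript, so its values need not follow the coding mRNA. That transcript lay at 0.402, 0.467, 0.414 and 0.176 in KO livers, against 0.628, 0.685, 0.331, 0.188 and 0.153 in WT livers, also overlapping. Neither passed the test for low transcripts described next (adjusted p = 0.458 and 0.997).

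Slc7a1 and 15 other carriers had a mean between 0.1 and 1 and were tested in a second limma fit on log2(value + 0.1), with adjustment over the transcripts with a mean of at least 0.1. Slc7a1 imports arginine, lysine and ornithine. It lay at 0.771, 0.867, 0.780 and 0.581 in KO livers, against 0.222, 0.252, 0.123, 0.170 and 0.225 in WT livers. The lowest KO value was above the highest WT value. The mean was 0.750 ± 0.121 in KO and 0.198 ± 0.052 in WT livers, 3.78-fold higher in KO, on about 84.9 and 22.5 normalised reads per library. The difference of 0.551 gave p = 0.0159 in a two-sided exact permutation test, the smallest that 4 against 5 libraries allow. The second fit gave a log2 fold change of 1.52 ± 0.23 (adjusted p = 0.00106), and the authors' deposited table gives a log2 fold change of 1.88 with q = 3.09e-05. In males alone the difference was 0.545, where the exact test cannot go below p = 0.2.

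Slc7a2 (CAT-2), the second cationic carrier of the family, was far more abundant and was not called. It lay at 36.9, 80.2, 45.8 and 47.2 in KO livers, against 38.1, 64.5, 39.3, 41.4 and 29.3 in WT livers. The spread within each group covered the difference of the means, 52.5 ± 19.0 in KO and 42.5 ± 13.2 in WT (adjusted p = 0.411). The UTR of Slc7a2 held 2 6mers, at bases 179 and 1676 of 5774.

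A facilitated carrier of large neutral amino acids gave the largest fold among the 5 called increases. Slc43a2 (LAT4), a carrier of branched-chain and aromatic amino acids and methionine, lay at 4.60, 5.96, 6.499 and 5.61 in KO livers, against 1.03, 0.522, 1.02, 1.31 and 0.756 in WT livers. The lowest KO value was well above the highest WT value. The mean was 5.67 ± 0.80 in KO and 0.928 ± 0.299 in WT livers, 6.11-fold higher in KO (log2 fold change 1.80 ± 0.14, adjusted p = 1.58e-05). The WT mean was below 1, so Slc43a2 passed the cut of 1 through its KO values. The call held in males alone (1.80, adjusted p = 0.00241) and with equal totals. Its UTR of 5099 bases held a 6mer at base 468 and a 7mer-A1 at base 4250, and an unnamed predicted gene on the opposite strand shares 245 of its 6891 exonic bases.

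Slc43a1 (LAT3), a related carrier, had a result that depended on a single WT library. It lay at 0.387, 0.610, 0.331 and 0.480 in KO livers, against 1.26, 1.73, 2.26, 1.09 and 0 in WT livers. WT replicate 5 was listed at 0, and the other 4 WT values were all above the KO values. The second fit gave -0.78 ± 0.82 (adjusted p = 0.515), and -1.58 (adjusted p = 0.00301) without WT replicate 5. Slc43a3, which in human cells carries nucleobases rather than amino acids, averaged 12.1 ± 1.3 in KO and 11.1 ± 1.8 in WT livers and was not called (adjusted p = 0.455).

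**Figure D4:**
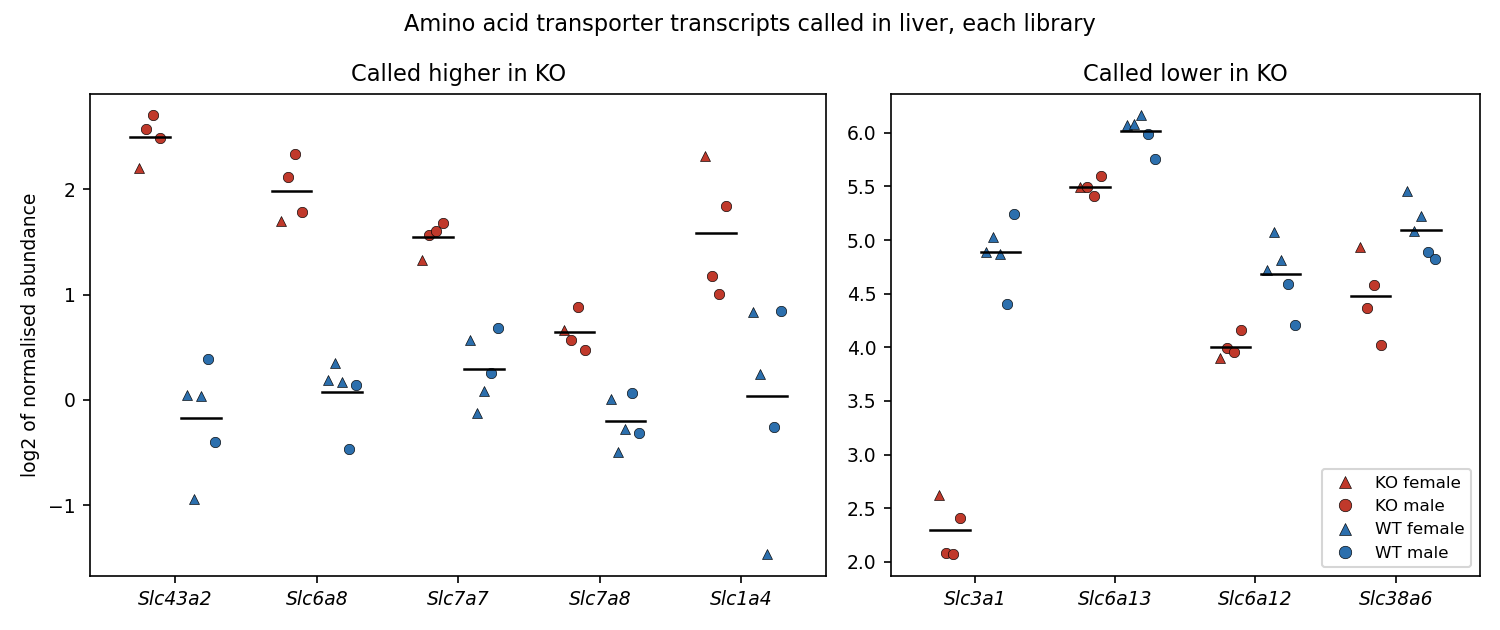
Log2 of normalised abundance (vertical axis) of the 9 carriers called with limma, one symbol per library, KO left of WT for each gene, triangles for females and circles for males; the bar is the mean of the log2 values. Slc43a2, Slc6a8, Slc7a7, Slc7a8 and Slc1a4 are higher and Slc3a1, Slc6a13, Slc6a12 and Slc38a6 lower in KO, and the groups overlap in this display for Slc38a6 alone; the lower calls other than Slc3a1 were lost with equal totals.

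The abundant sodium-coupled Slc38 carriers showed no called change apart from Slc38a6. Slc38a3 lay at 218.2, 394.1, 291.8 and 363.7 in KO livers, against 362.7, 475.2, 325.3, 372.6 and 348.3 in WT livers (adjusted p = 0.266). Slc38a4 lay at 192.2, 326.2, 266.2 and 315.9 in KO livers, against 241.5, 282.5, 286.4, 309.2 and 295.0 in WT livers (adjusted p = 0.772). For both, KO replicate 1 was the lowest of all 9 libraries. Their estimates were -0.27 and -0.07 on the deposited scale and 0.13 and 0.33 with equal totals, so neither has a direction that holds on both.

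Slc38a2 (SNAT2), a carrier of small neutral amino acids that is induced when amino acids run short, also followed KO replicate 1. It lay at 21.6, 47.4, 43.02 and 51.7 in KO livers, against 47.4, 27.4, 49.4, 34.6 and 26.4 in WT livers. All 3 KO males were above both WT males, while the KO female was below every other library. The log2 fold change was 0.12 ± 0.28 (adjusted p = 0.778) over all libraries and 0.63 (adjusted p = 0.0373) in males alone.

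Slc38a6, a member of the family found mostly in brain, lay at 30.5, 20.6, 23.9 and 16.3 in KO livers, against 43.9, 33.9, 37.4, 29.6 and 28.4 in WT livers. It was 1.52-fold lower in KO (log2 fold change -0.60 ± 0.18, adjusted p = 0.0288), with KO replicate 1 inside the WT range. The call was lost with equal totals (-0.21, adjusted p = 0.493), in males alone (-0.51, adjusted p = 0.0826), and without any 1 of KO replicates 2, 3 and 4 and WT replicates 1 and 3 (-0.63 to -0.46).

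The lysosomal carriers and the remaining tested Slc36 and Slc38 members were not called as deposited. Slc38a9, the arginine-sensing carrier of the lysosome that signals to mTORC1, lay at 1.61, 1.98, 2.10 and 2.02 in KO livers, against 1.44, 1.59, 1.59, 1.33 and 1.15 in WT livers. All KO values were above all WT values, with the lowest KO and the highest WT value close together. It was 1.36-fold higher in KO but did not pass (log2 fold change 0.28 ± 0.10, adjusted p = 0.0544). The authors' deposited table gives 0.40 with q = 0.0269, and equal totals gave 0.52 (adjusted p = 0.00800). Slc38a7, a lysosomal glutamine carrier, averaged 6.07 ± 0.87 in KO and 5.26 ± 0.55 in WT livers, with an adjusted p of 0.223. Slc36a1 (PAT1), a proton-coupled carrier of small amino acids, averaged 6.08 ± 0.68 in KO and 6.59 ± 1.17 in WT livers. Slc36a4, of the same family, averaged 2.60 ± 0.52 in KO and 2.90 ± 0.24 in WT livers. Slc38a10 averaged 19.6 ± 2.23 in KO and 18.04 ± 1.28 in WT livers. Both Slc36 estimates changed sign with equal totals, -0.09 and -0.12 as deposited against 0.26 and 0.17.

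The Slc6 family held 1 called increase and 2 called decreases among its 5 tested members. Slc6a8, the creatine carrier, lay at 3.24, 4.32, 5.05 and 3.45 in KO livers, against 1.14, 1.28, 1.12, 0.724 and 1.11 in WT livers. The groups were well apart, and the KO mean was 3.74-fold higher (log2 fold change 1.27 ± 0.13, adjusted p = 9.7e-05). The second fit described above, on log2(value + 0.1), gave 1.81 ± 0.19. The authors' deposited table gives 1.85 with a standard error of 1.15 and q = 0.354.

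Slc6a13 (GAT2), which imports GABA and taurine into hepatocytes, lay at 45.1, 44.9, 42.6 and 48.3 in KO livers, against 67.4, 67.8, 71.6, 63.7 and 53.9 in WT livers. Slc6a12 (BGT1), the betaine and GABA carrier, lay at 15.0, 16.0, 15.6 and 17.9 in KO livers, against 26.3, 33.6, 28.1, 24.1 and 18.4 in WT livers. Neither gene's groups overlapped, with WT replicate 5 the nearest to KO in both. Slc6a13 was 1.43-fold lower (log2 fold change -0.51 ± 0.09, adjusted p = 0.00215) and Slc6a12 1.62-fold lower in KO (-0.64 ± 0.15, adjusted p = 0.00819). With equal totals these became -0.11 and -0.26 (adjusted p = 0.531 and 0.285), and in males alone -0.37 and -0.34 (adjusted p = 0.0839 and 0.152).

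Slc6a6 (TauT), the taurine carrier, was not called. It lay at 17.95, 13.99, 14.8 and 11.5 in KO livers, against 12.6, 12.7, 11.99, 17.8 and 13.7 in WT livers, with full overlap (adjusted p = 0.715). Slc6a9 (GlyT1), the glycine carrier, averaged 4.64 ± 1.07 in KO and 3.55 ± 1.44 in WT livers and was called in males alone (0.77, adjusted p = 0.0330) but not over all libraries (0.35, adjusted p = 0.259).

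The Slc1 family holds the glutamate carriers and the neutral exchangers ASCT1 and ASCT2. Slc1a4 (ASCT1), an exchanger of alanine, serine, cysteine and threonine, lay at 4.98, 2.26, 2.01 and 3.58 in KO livers, against 1.79, 1.18, 0.363, 0.835 and 1.79 in WT livers. The groups did not overlap but were widely spread, and KO was 2.69-fold higher (log2 fold change 0.94 ± 0.27, adjusted p = 0.0217). The call was lost without KO replicate 1 (0.75), without KO replicate 4 (0.88) and in males alone (0.65, adjusted p = 0.139), and the authors' deposited table gives q = 0.270. Slc1a2 (GLT-1), the glutamate importer of pericentral hepatocytes, lay at 15.1, 17.2, 13.5 and 17.6 in KO livers, against 15.3, 19.2, 19.3, 16.9 and 10.7 in WT livers. Its groups overlapped fully (log2 fold change -0.02 ± 0.16, adjusted p = 0.947).

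Slc1a5 (ASCT2), the glutamine exchanger with an 8mer near its stop codon, belongs to the low group. It lay at 0.596, 0.471, 0.637 and 0.572 in KO livers, against 0.372, 0.357, 0.346, 0.312 and 0.237 in WT livers. All KO values were above all WT values, on about 23.9 and 13.6 normalised reads per library. The second fit gave a log2 fold change of 0.66 ± 0.20 (adjusted p = 0.0325), which no longer passed without any 1 of KO replicates 1, 3 and 4 and WT replicates 3, 4 and 5, where the estimates were 0.58 to 0.68. In males alone it was larger and did not pass (0.82, adjusted p = 0.149). The authors' deposited table gives q = 0.573.

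Of the 16 carriers with a mean between 0.1 and 1, the second fit called 6 higher and 1 lower in KO livers, and 9 did not pass. Among the 4463 transcripts in that range, 19.4% were called higher and 2.02% lower. The median log2 fold change was 0.41 both for the 16 carriers and for all 4463 transcripts. The groups did not overlap for 5 carriers with KO above, against 19.2% of transcripts in that range, and for 1 with KO below, against 1.68%.

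Slc7a1 and Slc1a5 were 2 of these 7 calls, and the other 5 were as follows. Slc6a19 (B0AT1), the neutral amino acid importer of kidney and gut, is represented by a processed transcript without a coding sequence. It lay at 0.499, 0.266, 0.404 and 0.281 in KO livers, against 0.0168, 0.0429, 0, 0.0274 and 0 in WT livers (log2 fold change 1.96 ± 0.28, adjusted p = 0.000926). All KO values were above all WT values. With a WT mean of 0.0174, Slc6a19 passed the cut of 0.1 through its KO values. Slc6a4, the serotonin carrier, lay at 0.521, 0.893, 0.731 and 0.795 in KO livers, against 0.202, 0.364, 0.224, 0.146 and 0.238 in WT livers (1.33 ± 0.25, adjusted p = 0.00356). Slc7a6 (y+LAT2), which like Slc7a7 exchanges cationic for neutral amino acids, lay at 0.278, 0.491, 0.321 and 0.498 in KO livers, against 0.161, 0.230, 0.0717, 0.0526 and 0.0858 in WT livers (1.21 ± 0.31, adjusted p = 0.0174). Both had non-overlapping groups, and the Slc7a6 call was lost without KO replicate 2 (1.11) or KO replicate 4 (1.11). The authors' deposited table gives q = 0.122 for Slc6a4, q = 0.162 for Slc7a6 and no q for Slc6a19.

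Slc7a4, a member of the cationic branch without shown transport activity, lay at 0.739, 0.631, 0.0630 and 0.793 in KO livers, against 0.0682, 0, 0.277, 0 and 0 in WT livers. With a WT mean of 0.0691 it passed the cut of 0.1 through its KO values, and the authors' deposited table gives it no q. KO replicate 3 was inside the WT range, and the call (1.92 ± 0.61, adjusted p = 0.0402) was lost without any 1 of KO replicates 1, 2 and 4 and WT replicates 1, 2, 4 and 5 (1.68 to 1.97), and in males alone with a larger estimate (2.25, adjusted p = 0.127). Slc6a18 (B0AT3), a kidney carrier of neutral amino acids, was the 1 low carrier called lower. It lay at 0.126, 0.156, 0.140 and 0.0647 in KO livers, against 0.359, 0.261, 0.276, 0.620 and 0.369 in WT livers, without overlap (-1.08 ± 0.28, adjusted p = 0.0181). That call was lost with equal totals (-0.81, adjusted p = 0.0596), in males alone with a larger estimate (-1.43, adjusted p = 0.0854), and without KO replicate 4 (-0.94). The authors' deposited table gives q = 0.104.

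**Figure D5:**
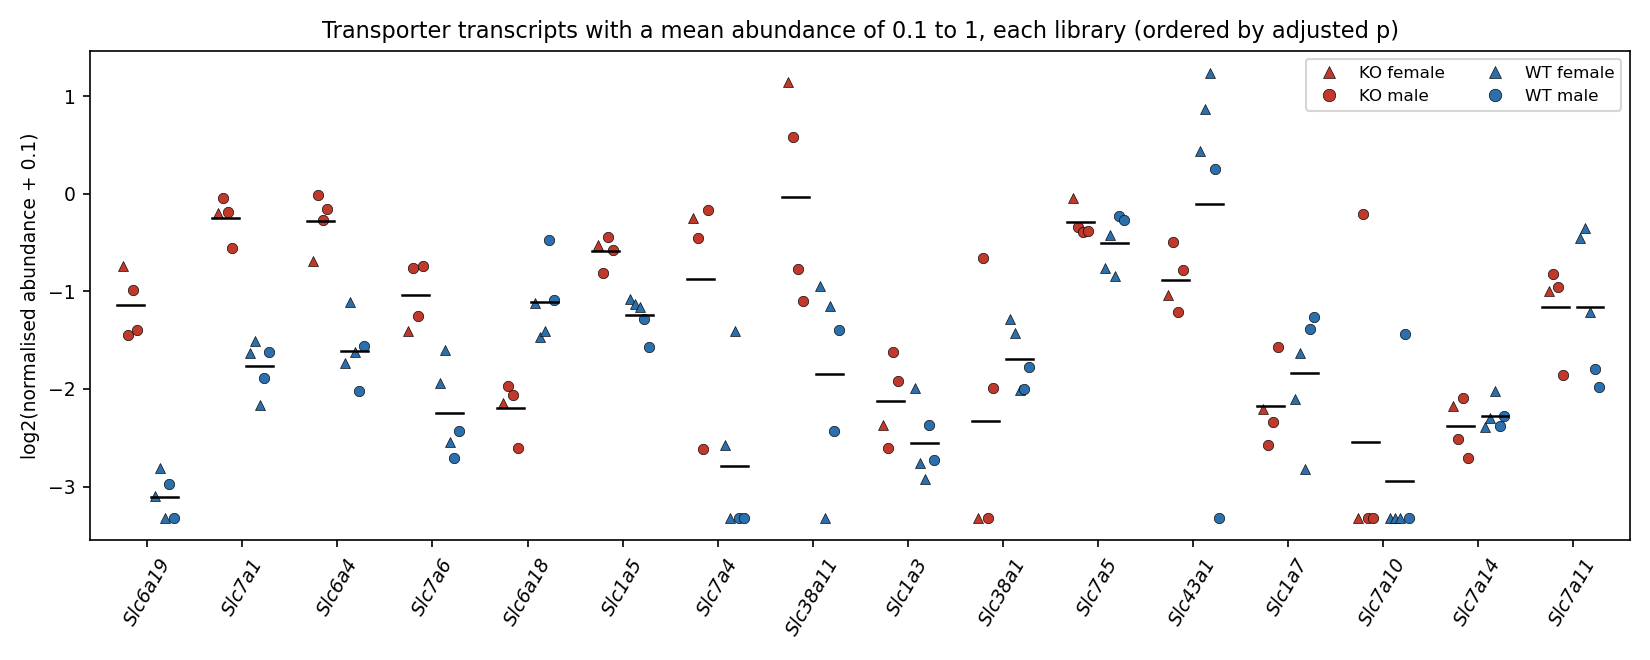
Log2 of normalised abundance plus 0.1 (vertical axis) for the 16 carriers with a mean of 0.1 to 1, one symbol per library, KO left of WT for each gene and ordered by adjusted p; bars are means of the plotted values. Slc6a19, Slc7a1, Slc6a4, Slc7a6 and Slc1a5 have every KO library above every WT library and Slc6a18 the reverse order, while several genes further right have libraries listed at 0.

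Set by seed match, calls in the second fit were as follows. Of the 3 carriers with an 8mer, 2 were called higher (Slc7a1 and Slc1a5), where 40.5% of all tested transcripts with an 8mer were called higher. The third, Slc38a9, had an adjusted p of 0.0577. Of the 5 tested carriers with a 7mer-m8, Slc6a4 and Slc7a6 were called higher, where 35.0% of such transcripts were. Slc38a2, Slc38a1 and Slc7a14 were the other 3. Of the 4 with a 7mer-A1, Slc43a2 was called higher and Slc38a6 lower, where 29.6% of such transcripts were higher and 5.73% lower. Of the 8 tested with a 6mer, Slc6a8, Slc7a7 and Slc7a8 were called higher, where 25.0% were. Of the 14 tested carriers with no match, 2 were called higher and 4 lower, where 20.1% of transcripts without a match were called higher and 12.8% lower. No test was made on counts this small.

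The sexes are unequal between the groups, with a single KO female, so sex was checked in the same table. With sex as a covariate the count of called carriers was again 5 higher and 4 lower. A genotype by sex term was called for none of the 23 carriers (limma, smallest adjusted p = 0.275 for Slc3a2) and for 0.119% of all transcripts. At an unadjusted p below 0.05 it was found for 7 of the 23 carriers and for 10.7% of all transcripts. The 7 were led by Slc3a2 (0.98 on the log2 scale), Slc38a2 (1.49) and Slc36a1 (-0.63), and those estimates rest on KO replicate 1, the single KO female. In the authors' deposited table, 35 carriers have a q. At q below 0.05, 5 of them were higher and 4 lower in KO, where 13.6% of its transcripts were higher and 11.6% lower.

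Other genes of amino acid handling were counted by list in the limma fit as deposited, where 21.4% of all tested transcripts were higher and 14.5% lower. Among 9 tested carriers of other families and partner proteins, 3 were called higher and 2 lower. Slc15a3, a lysosomal peptide and histidine carrier, was 2.23-fold higher in KO (adjusted p = 0.000910), and the lysosomal carriers Mfsd12 and Pqlc2 were 1.48-fold and 1.39-fold higher. Slc17a8, a vesicular glutamate carrier, averaged 1.63 ± 0.31 in KO and 9.37 ± 3.05 in WT livers, 5.75-fold lower in KO (adjusted p = 0.000180). Slc25a13 (citrin), the mitochondrial aspartate-glutamate exchanger of the urea cycle, averaged 73.0 ± 6.8 in KO and 111.5 ± 8.5 in WT livers (adjusted p = 0.000692), a call lost with equal totals. The list's median log2 fold change was 0.24.

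Among 20 tested genes of amino acid sensing by mTORC1 and GCN2, 5 were called higher and 1 lower, with a median of 0.05. The share called higher was near the 21.4% of all tested transcripts. Rragd, a Rag GTPase that recruits mTORC1 to the lysosome, averaged 2.69 ± 0.39 in KO and 0.276 ± 0.194 in WT livers, 9.75-fold higher (adjusted p = 3.79e-05). Sesn2, a leucine sensor, was 2.17-fold higher (adjusted p = 0.000330). Atf4, the transcription factor downstream of GCN2, was 1.29-fold higher (adjusted p = 0.0174) and Gatsl3 1.79-fold higher (adjusted p = 0.0415). Rragd and Gatsl3 had WT means below the cut of 1 (0.276 and 0.750), which they passed through their KO values. Sar1b was 1.44-fold lower on the deposited scale (adjusted p = 0.00135) and was not called with equal totals.

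Enzymes that use the imported amino acids were counted in the same way, beside 21.4% higher and 14.5% lower among all transcripts. Among 13 tested glutamine and glutamate genes, 2 were called higher and 6 lower, with a median of 0.05. Aldh18a1 and Pycr1 lay below the cut of 1 and were not tested. Aldh18a1 averaged 1.12 ± 0.61 in KO and 0.123 ± 0.198 in WT livers, and Pycr1 0.526 ± 0.098 and 0.122 ± 0.088. For both, all KO values were above all WT values. Gclm and Gss, of glutathione synthesis, were 1.42-fold and 1.43-fold higher. Gls2, the liver glutaminase, averaged 19.0 ± 4.4 in KO and 51.6 ± 14.7 in WT livers, 2.71-fold lower (adjusted p = 0.000692), and it alone of the 6 was still called with equal totals. Got2, Prodh and Gpt2 were 1.32-fold, 1.62-fold and 1.38-fold lower on the deposited scale.

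Among 8 tested arginine and lysine genes none was called higher and 5 were called lower, with a median of -0.69. Arg1, the arginase that makes urea, averaged 777.6 ± 111.5 in KO and 1596 ± 323 in WT livers (2.05-fold lower, adjusted p = 0.00127). Otc, Asl and Aass were 1.64-fold, 2.76-fold and 1.71-fold lower. These 4 were also called lower with equal totals, where Odc1 was called higher (0.70, limma, adjusted p = 0.00113). Among 6 taurine and betaine genes, Bhmt and Chdh, which use and make betaine, were 1.76-fold and 1.34-fold higher in KO. Baat and Aldh7a1 were 1.47-fold and 1.26-fold lower, and neither was called with equal totals. The list's median was -0.37.

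Markers of other liver cells differed between the groups too, counted on the deposited scale. There 21.4% of all tested transcripts were called higher and 14.5% lower. All 7 macrophage markers were called higher, and their sum ran from 315.9 to 335.0 in KO livers and from 154.0 to 188.4 in WT livers, with Lyz2 the largest part. Of the 8 cholangiocyte and progenitor markers, 5 were tested and all 5 were higher. Their sums ran from 576.4 to 939.9 in KO livers and from 33.46 to 60.16 in WT livers, most of it Spp1. Epcam, Krt19, Prom1 and Sox9 had WT means below the cut of 1, which they passed through their KO values. The same held for Des among the stellate markers and for Mki67 and Ccnb1 among the proliferation markers. Of 7 stellate and fibroblast markers 6 were higher, with sums from 235.1 to 280.9 in KO livers and from 113.8 to 206.0 in WT livers. Most of those sums was Dcn, the 1 stellate marker not called. Of 6 periportal hepatocyte markers 4 were lower, with sums from 865.4 to 1676 in KO livers and from 1393 to 1750 in WT livers. The largest part of those sums was Pck1, which was not called. With equal totals Gls2 and Hal were still called lower, Cyp2f2 and Hsd17b13 were not called, and Pck1 was called higher. Of 8 pericentral markers 2 were higher and 1, Glul, lower. With equal totals the Glul call was lost and Oat was called higher. Called higher were also 3 of 4 proliferation markers, 1 of 3 tested erythroid markers, and Ptprc, the 1 tested gene of the T, B and NK cell list. S100a8 and S100a9, the only neutrophil markers tested, were called higher too, with WT replicate 5 inside the KO range for both. The remaining genes of these last lists, T, B and NK cell and neutrophil, lay below the cut of 1 and were not tested. Among them the KO mean was lower for Ms4a1 and Ly6g and higher for the others. Of 6 endothelial markers 1 was higher and 1, Lyve1, lower, and the Lyve1 call was lost with equal totals. No marker of any of these lists was at 0 in every library. Their part in the carriers' differences was not tested, and in bulk liver a change in the number of cells of a type cannot be told apart from a change in RNA per cell.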

How the data were processed

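Livers of 4 miR-122 KO and 5 floxed WT mice were compared, grouped by genotype and sex in the labels. The tools named are kallisto and sleuth and the build is mm10, per the submitters' processing notes. Their versions, and how 1 transcript per gene was picked, are not stated there, and a change can be that of 1 isoform. The authors deposited a normalised signal per library, p-value and q-value columns for 13540 transcripts, and a coefficient, its standard error and a mean observation in natural log units. The coefficient is WT minus KO by the values and was turned round and converted to log2 here.

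Transcripts with a mean of at least 1 were tested with limma 3.58.1 in R 4.3.3 on log2(value + 1). The model held genotype alone, the prior variance followed mean abundance, and p-values were adjusted after Benjamini and Hochberg with a threshold of 0.05. The design named this test unless the values were counts, and it was kept for these normalised abundances. A second fit used a pseudocount and a minimum mean of 0.1, and Slc7a1 had an exact permutation test. Both minimum means were taken over all 9 libraries, so a transcript can pass through 1 group alone. The fitting code was tested on simulated data first. Reads per transcript were approximated from the mean observation. The depth of each library before scaling was not worked out, so intervals cover only the spread between animals.

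Members, lists and markers were chosen with earlier results of these data known. Carriers given per library are those called with a mean of at least 1 and 17 listed ones. Slc6a19, Slc6a4, Slc7a6, Slc7a4 and Slc6a18 are given per library as called in the second fit, a choice made after their values were seen. From each list, up to 4 genes per direction are named, by adjusted p. Slc7a6os, which the written design took not to match the symbol rule, does match it and was set apart. The alternatives were other filters, pseudocounts, scaling, covariates, a replicate block, single libraries left out, males alone and the authors' q.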

Additional observations from a re-analysis of the deposited data

Results flagged for a closer look

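In 5 groups of libraries, of 4 carriers, 1 library lay far from the others by Dixon's test. Over 78 groups examined, 5 were flagged, where chance flags about 1 in 20. Slc7a10, the alanine-serine-cysteine exchanger Asc-1 of brain and fat, was 0.764 in KO replicate 2, with the other KO libraries at or next to 0, and 0.270 in WT replicate 4, with the other WT libraries at or next to 0. Slc7a14, a lysosomal relative of the cationic carriers, was 0.146 in WT replicate 3, against at most 0.106 in the other WT libraries. Slc7a4 was 0.277 in WT replicate 3, against at most 0.0682 in the others. Slc7a5 was 0.873 in KO replicate 1, the KO female, against 0.664 to 0.691 in the KO males. None of these 4 genes had a mean above 1, and the flags touch no call other than that of Slc7a4.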

How the results depend on the processing

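Slc3a1, Slc43a2 and Slc7a7 kept their direction and their call under all alternatives run for them, and Slc6a8 under all but the authors' q. In the second fit Slc7a1, Slc6a19 and Slc6a4 kept theirs under the alternatives refitted here, while the authors' q for Slc6a4 is 0.122 and Slc6a19 has none. The count of called carriers, 9 in 23, was 16 with no minimum mean (11 higher) and 16 with pseudocount and minimum mean of 0.1 (11 higher), and 4 with a minimum mean of 5 (0 higher), which tests 15 carriers. With equal totals 10 were higher and 1 lower, and in males alone 1 was lower. Leaving out single libraries gave 7 to 10 calls. Over all transcripts, 3934 calls became 2589 with a minimum mean of 5, 2336 in males alone and 2362 at a threshold of 0.01, and 3114 to 4054 with a library left out. The Slc7a1 difference of 0.551 was 0.545 in males alone (exact p = 0.2, the smallest possible) and 0.512 to 0.607 with a library left out.

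Some carriers without a call changed sign, and the cause was not tested. With equal totals the log2 fold change became 0.357 for Slc1a2, 0.255 for Slc36a1, 0.169 for Slc36a4, 0.126 for Slc38a3, 0.333 for Slc38a4 and 0.106 for Slc7a14. With sex as a covariate Slc1a2 was 0.055. In males alone Slc1a2 was 0.228, Slc6a6 -0.212, Slc43a1 0.703 and Slc7a5 -0.123. With a library left out the range was -0.15 to 0.054 for Slc1a2, -0.018 to 0.39 for Slc38a2, -0.157 to 0.097 for Slc38a4, -0.026 to 0.173 for Slc6a6, -0.203 to 0.236 for Slc7a11 and -0.133 to 0.008 for Slc7a14. The authors' q gave 5 higher and 4 lower carriers, of 35 with a q. The 5 higher were another set, with Slc7a1 and Slc38a9 in it and without Slc6a8 and Slc1a4.

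The labels do not say whether the replicate numbers pair the animals. Same-numbered libraries correlated at 0.23, 0.08, -0.18 and 0.11, and KO and WT libraries of other numbers between -0.27 and 0.23. So few values cannot decide whether the animals were paired. A fit with the replicate block called 9 carriers and 3557 transcripts, and gave -0.203 for Slc7a11. WT replicate 5 has no partner, so the block in effect leaves it out. In the second fit Slc6a18 (-1.074) and Slc7a6 (1.159) lost their calls with the block and not without that library alone, at the same estimates. Slc1a5 (0.577), Slc7a4 (1.784) and Slc43a1 (-1.583) changed their call in both. The carriers under a mean of 0.1 were tested in the fit with no minimum mean, apart from the 3 at 0 in every library.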
